A study of Mus musculus with 12 samples.

Results

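Cell cycle and DNA replication genes were examined in the colon of mice after dextran sulfate sodium (DSS) colitis with or without L-arginine (L-Arg). The genes were chosen by name, as 37 genes that dividing cells use to copy DNA and to divide, with no measured value in the rule, although earlier results of these data were known when the list was made. Of these, 36 had a probe set that the platform table assigns to a single gene, among 19938 genes measured in all. Ccnb1, which encodes cyclin B1, had no such probe set and was not analysed here.

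Each of the 12 arrays held RNA from the colon of 1 male wild-type C57BL/6 mouse, 7 weeks old at the start and 8 weeks and 3 days old by the label, with 3 mice in each of 4 groups. The control mice drank water, and the control+L-Arg mice drank water and then 1% L-Arg for the last 4 days. The DSS mice received 4% DSS, a sulfated sugar polymer toxic to the lining of the colon, for 6 days and then water for 4 days. The DSS+L-Arg mice received the same DSS and then 1% L-Arg for 4 days, and all mice were sacrificed on day 10. By the methods of the study, samples of the proximal and the distal colon were combined, so each array is a mixture of regions and of cell types. In such a mixture, fewer cells of a type and less RNA per cell cannot be told apart. Values are log2 signals normalized by RMA, on which a difference of 1 is a 2-fold difference. Epithelial genes were high in every array, with Epcam between 12.03 and 12.27 and the intestinal transcription factor Cdx2 between 11.37 and 12.08.

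In the colon, epithelial cells divide in the lower crypt and stop dividing as they move toward the surface, so transcripts of dividing cells mark the proliferative compartment, together with any dividing immune or stromal cells. In G1, Cdc6 and Cdt1 load the Mcm2 to Mcm7 helicase onto replication origins. In S phase the helicase opens DNA, the Pcna clamp holds polymerases on it, and ribonucleotide reductase and thymidylate synthase supply deoxynucleotides. Cyclins with Cdk1 then drive entry into mitosis, in which kinases, kinetochore proteins and motors segregate the chromosomes.

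Early and late genes of the cycle are commonly switched on through different promoter elements. E2F factors bind promoters of replication genes, the DREAM complex acts through the cell cycle homology region of mitotic genes, and NF-Y binds CCAAT boxes in both. Promoter windows of 300 bases, 250 before and 50 after the transcription start, were taken from RefSeq on GRCm38.p6. They were found for 29 of the 36 genes in 31 windows. Letters were searched on both strands as CCAAT, as TTTGAA for the homology region, and as TTTGGCGC, TTTGCCGC, TTTCGCGC or TTTCCCGC for E2F. CCAAT was in 25 of 31 windows (80.6%), compared with 37.4% of 32851 mouse promoters of the same length. TTTGAA was in 12 of the 16 windows of the mitotic kinase, chromosome and spindle genes (75.0%), but in 1 of the 12 windows of the licensing, clamp and nucleotide genes (8.33%), compared with 17.9% of all promoters. The E2F letters were in 6 of these 12 licensing, clamp and nucleotide windows (50%) and in 0 of the 16 mitotic windows, compared with 2.26% of all promoters. A match is only a run of letters, and none of these counts was tested.

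The licensing genes Cdt1 and Mcm3 are shown because their group means differed most between DSS and control within that role. Capitals mark the matches of the 3 searches. In Cdt1 these letters are an E2F spelling after the start. In Mcm3 they are 3 CCAAT boxes, of which the first is on the opposite strand (as ATTGG), and 2 E2F spellings after the start, of which the first is on the opposite strand.
Cdt1 (chr8:122567765-122568064, plus strand): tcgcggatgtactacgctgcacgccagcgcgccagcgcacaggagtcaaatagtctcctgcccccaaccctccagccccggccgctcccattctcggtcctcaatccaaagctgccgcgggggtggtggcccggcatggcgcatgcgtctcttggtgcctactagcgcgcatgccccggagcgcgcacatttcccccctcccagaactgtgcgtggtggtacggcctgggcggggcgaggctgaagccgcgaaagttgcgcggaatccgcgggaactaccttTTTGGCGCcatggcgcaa
Mcm3 (chr1:20820263-20820562, minus strand): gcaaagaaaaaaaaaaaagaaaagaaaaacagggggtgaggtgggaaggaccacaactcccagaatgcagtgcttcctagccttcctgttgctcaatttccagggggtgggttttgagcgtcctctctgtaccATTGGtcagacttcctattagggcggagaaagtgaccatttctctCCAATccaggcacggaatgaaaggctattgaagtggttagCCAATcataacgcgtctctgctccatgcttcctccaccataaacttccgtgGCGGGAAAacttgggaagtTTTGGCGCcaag

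The spindle genes Nusap1 and Kif11 are shown because they had the largest differences among the mitotic roles. Kif11 holds a CCAAT box as ATTGG and the homology region as TTCAAA, both on the opposite strand, and the Nusap1 window holds none of the letters searched.
Nusap1 (chr2:119618048-119618347, plus strand): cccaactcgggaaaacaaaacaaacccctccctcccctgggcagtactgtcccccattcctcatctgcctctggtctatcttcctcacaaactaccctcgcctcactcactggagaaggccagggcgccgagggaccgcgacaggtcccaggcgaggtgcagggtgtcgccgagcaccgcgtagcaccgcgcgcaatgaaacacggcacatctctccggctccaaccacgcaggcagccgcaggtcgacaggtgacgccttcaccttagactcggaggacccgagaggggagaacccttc
Kif11 (chr19:37376132-37376431, plus strand): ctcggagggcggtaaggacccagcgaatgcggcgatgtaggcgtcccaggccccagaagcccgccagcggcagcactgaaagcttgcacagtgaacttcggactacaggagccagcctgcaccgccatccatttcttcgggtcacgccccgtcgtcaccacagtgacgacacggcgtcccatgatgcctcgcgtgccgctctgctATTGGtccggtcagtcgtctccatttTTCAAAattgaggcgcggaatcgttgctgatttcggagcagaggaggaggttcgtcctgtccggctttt

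Rrm2 was added after its values were seen, because it was the only member called. Its window has 1 CCAAT box and no match to TTTGAA or to the E2F spellings.
Rrm2 (chr12:24708004-24708303, plus strand): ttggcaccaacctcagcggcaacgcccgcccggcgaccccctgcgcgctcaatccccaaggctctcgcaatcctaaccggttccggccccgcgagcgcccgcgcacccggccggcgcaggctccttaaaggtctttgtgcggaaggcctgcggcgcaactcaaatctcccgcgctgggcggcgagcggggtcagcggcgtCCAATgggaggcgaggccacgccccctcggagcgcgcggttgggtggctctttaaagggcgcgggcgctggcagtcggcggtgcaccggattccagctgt

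The 3 DSS mice stood far apart from each other in these genes, on either side of the controls. DSS 3 had the highest value of the 12 arrays in 36 of 36 genes, compared with 13.5% of all 19938 genes. DSS 2 had the lowest value of the 12 arrays in 34 of 36 genes, compared with 16.5% of all genes. The exceptions were Rrm2, and Cdt1, for which other arrays were lower. In 34 of 36 genes DSS 3 was the highest and DSS 2 the lowest array together, compared with 3.65% of all genes.

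Relative to the control mean of each gene, the median of the 36 genes was 0.07 in DSS 1, -0.90 in DSS 2 and 0.93 in DSS 3. The same median over all genes lay between -0.03 and -0.01 in these 3 arrays. DSS 1 was thus close to the controls, while DSS 2 lay about as far below them as DSS 3 lay above. DSS 3 exceeded DSS 2 by a median of 1.95 on the log2 scale (3.87-fold), from 0.16 for Rrm2 to 2.45 for Top2a. Over all genes that median was -0.03.

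The other groups were narrower. Medians of the 36 genes were 0.19, -0.21 and 0.08 in the control mice, 0.07, -0.28 and 0.13 in the control+L-Arg mice, and 0.50, -0.15 and 0.09 in the DSS+L-Arg mice. The median SD of a gene between the 3 mice of a group was 0.98 in DSS, compared with 0.22 in control, 0.23 in control+L-Arg and 0.33 in DSS+L-Arg. The DSS group had the largest SD of the 4 groups in 36 of 36 genes, compared with 39.5% of all genes, whose median SD was 0.15 in DSS and 0.10 in control. Mouse 2 was the lowest of its group in 26 of 36 genes in control, 33 in control+L-Arg, 35 in DSS and 29 in DSS+L-Arg, and DSS+L-Arg 1 was the highest of its group in 31. The share over all genes is not given for these counts within groups, and genes that vary together are not separate observations. Whether mouse numbers pair mice is not in the labels. All these values are descriptions of single mice, and no test was made of them.

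**Figure D1:**
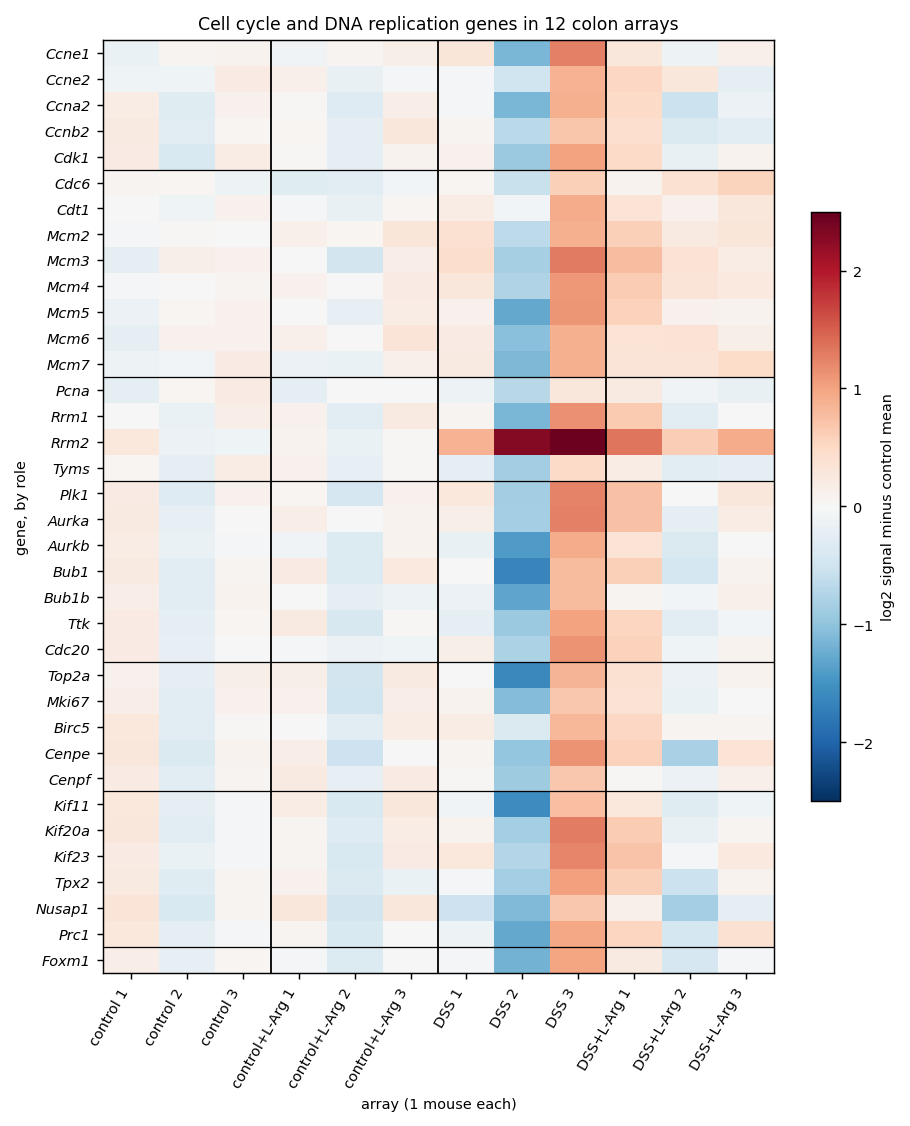
Log2 signal of the 36 genes (rows, by role) in the 12 arrays (columns, 1 mouse each), each minus the mean of the 3 control mice, in color. DSS 2 is blue and DSS 3 red in nearly every row, and Rrm2 is red in all 3 DSS mice.

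Markers of other cells also differed between the DSS mice. Medians of 12 neutrophil markers relative to control were 2.56, 2.10 and 4.45 in DSS 1, 2 and 3, and those of 11 monocyte and macrophage markers were 0.97, 0.98 and 2.38. Medians of 12 crypt base and stem cell markers were -0.08, -0.62 and -0.08, and those of 7 goblet cell markers 0.10, -0.15 and -0.77. Medians of 9 fibroblast markers were 0.96, 0.41 and 0.08, and those of 8 endothelial markers 0.60, 0.59 and 0.10. DSS 3 thus had the highest myeloid and the lowest goblet cell, fibroblast and endothelial markers of the 3, and DSS 2 the lowest crypt base markers. General epithelial markers did not follow this order, with medians of 0.01, -0.04 and -0.05, and neither did 6 markers of immature myeloid cells (0.13, 0.10 and -0.01). Posterior Hox genes, which mark the distal gut, were at -0.86, -0.57 and -0.13 in the DSS mice, but ranged from -1.03 to 0.48 among the control mice alone, where control 2 was the lowest. The part of cell makeup or of the piece of colon taken in the spread of the cell cycle genes was not tested.

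**Figure D2:**
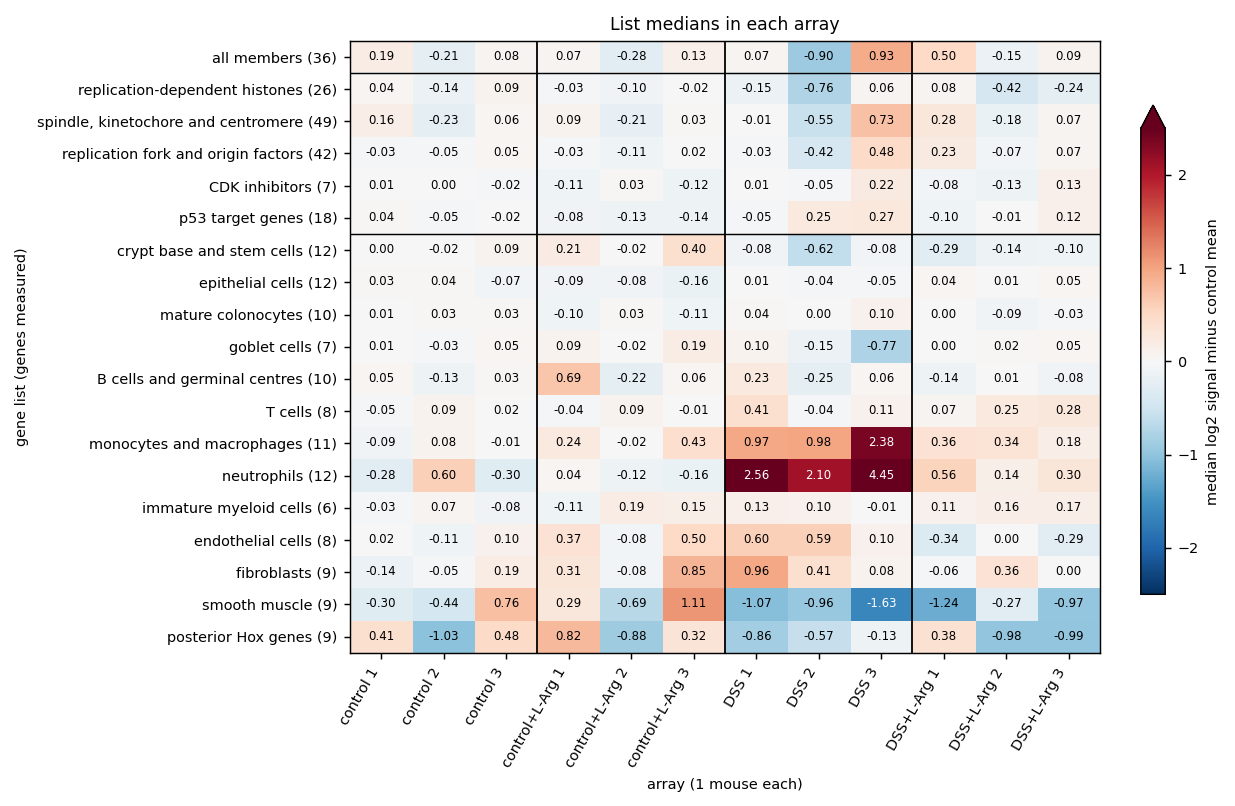
Median log2 signal of each gene list (rows, number of genes in parentheses) minus its control mean in the 12 arrays (columns, 1 mouse each), in color and in digits, where colors saturate at 2.5 above or below 0. The 36 cell cycle genes run from -0.90 in DSS 2 to 0.93 in DSS 3, and the neutrophil markers reach 4.45 in DSS 3.

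The first question was whether cell cycle genes differed between colitic and uninjured colon. One gene, Rrm2, was higher in DSS than in control by limma at an adjusted p under 0.05, and no gene was lower. Over all genes 1.8% were called higher and 2.23% lower, so the count over the 36 genes is near the background. The median log2 difference of the 36 genes was 0.02, with 20 higher and 16 lower in the mean, and that of all genes was -0.01. In the mean, 46.9% of all genes were higher.

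Rrm2 encodes the small subunit of ribonucleotide reductase, which makes deoxynucleotides from ribonucleotides. Its signals were 8.50, 8.10 and 8.13 in control, 8.33, 8.08 and 8.27 in control+L-Arg, 9.11, 10.54 and 10.70 in DSS, and 9.58, 8.85 and 9.17 in DSS+L-Arg. All 6 DSS-exposed mice with or without L-Arg were above all 6 mice without DSS, and DSS 2 and DSS 3 lay within 0.16 of each other. Rrm2 was singled out by its call, so this separation adds no support, and its share over all genes is not given. The difference between DSS and control was 1.87 ± 0.34 on the log2 scale (SE, 3.66-fold, limma adjusted p = 0.0141). The means were 10.11 ± 0.88 and 8.24 ± 0.23 (SD, n = 3 each). Groups that did not overlap were seen for 25% of all genes in this comparison, and for Rrm2 alone among the 36.

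In DSS 2, Rrm2 was 2.29 above the control mean, while the other 35 genes were all below their control means there. The difference was 1.66 without DSS 2 and 1.58 without DSS 3 (adjusted p = 0.0433 and 0.0331). It was not called in a fit of the DSS and control arrays alone (adjusted p = 0.101) or without control 3 (adjusted p = 0.0656). Rrm1, the large subunit of the same enzyme, was at 8.87 ± 1.14 in DSS and 8.85 ± 0.18 in control, with a difference of 0.02 and a 95% interval from -0.95 to 0.99.

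Differences of the other 35 genes between DSS and control lay between -0.32 for Nusap1 and 0.34 for Cdt1, and the lowest adjusted p was 0.386. These p-values do not show that the means are alike, since the median 95% interval reached 0.85 to either side. The interval lay within a 2-fold difference for 20 of the 35 genes. For the other 15, which include Ccne1, Plk1, Aurka, Aurkb, Bub1, Top2a, Cenpe and Kif11, a 2-fold difference in 1 direction or both is within the interval.

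The mean hides what the single mice showed. Without DSS 2, 36 of 36 genes were higher in DSS than in control, with a median of 0.50. Without DSS 3, 34 of 36 were lower, with a median of -0.42, and Rrm2 and Cdt1 were the others. The number of the 36 genes at an unadjusted limma p under 0.05 was 1 with all mice, 12 without DSS 2 and 6 without DSS 3. The share of all genes at that threshold is not given for these fits, so the counts have no background to be read against. Rrm2 was the only member called in each of these fits. Without DSS 1, which lay between the others, the median was 0.02.

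**Figure D3:**
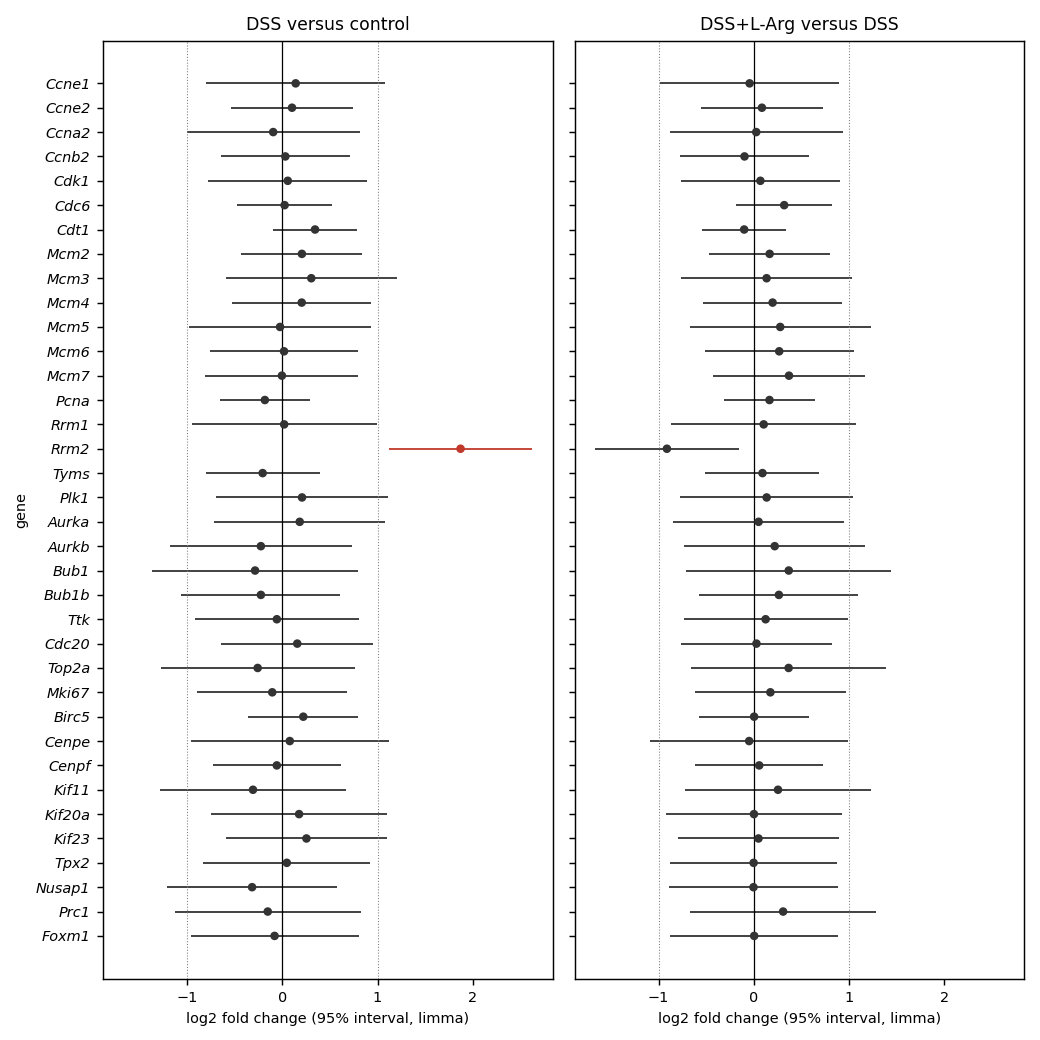
Log2 fold change (x axis) of each of the 36 genes (y axis) in DSS versus control (left) and DSS+L-Arg versus DSS (right), with 95% intervals from limma as lines and dotted lines at a 2-fold difference. Rrm2 in DSS versus control, at 1.87, is the only value called at an adjusted p under 0.05 (red).

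The second question was whether L-Arg after DSS changed these genes. No member was called in DSS+L-Arg versus DSS, where 0.115% of all genes were called higher and 0.522% lower, and 1 (Rrm2) had an unadjusted limma p under 0.05, with 0 by SAM, the permutation method of the study. Of the 36 genes, 29 were higher and 7 lower in the mean, where 62.8% of all genes were higher. The median was 0.10, compared with 0.06 over all genes. Rrm2 had the largest difference, at -0.91 ± 0.34 (limma adjusted p = 0.287), and its groups overlapped because DSS 1 lay within the DSS+L-Arg range. Without DSS 1 the difference was -1.42 and was called (adjusted p = 0.00965), which rests on 2 DSS mice. Groups that did not overlap were seen for 0 of 36 genes here, compared with 16.6% of all genes.

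The direction of the remaining 35 genes turned on single DSS mice. Without DSS 3, 35 of 35 had the higher mean in the DSS+L-Arg mice, with a median of 0.56. Without DSS 2, 34 of 35 were lower, with a median of -0.36. A difference in means was not detectable against this spread with 3 mice a group.

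In uninjured colon, 0 of 36 genes were called in control+L-Arg versus control, where 0% of all genes were called, and 0 had an unadjusted limma p under 0.05, with 0 by SAM also. Differences lay between -0.22 and 0.16. Mcm2 alone did not overlap between the groups, compared with 10.4% of all genes. Between DSS+L-Arg and control 0 members were called, with 0.0652% of all genes called, and between DSS+L-Arg and control+L-Arg 0 members, with 0.306% of all genes called. At an unadjusted limma p under 0.05 there were 1 and 2 members, and by SAM 7 and 5. The share of all genes at these unadjusted thresholds is not given, so the counts cannot be called an excess. Groups did not overlap for 23.2% and 21.1% of all genes in these comparisons. The limma fit shares 1 spread of each gene over the 4 groups, so the wide DSS group enters its p-values here too. SAM used the compared arrays alone. The interaction, which tests whether the L-Arg difference differs with and without DSS, called 0 members and 0.0752% of all genes, with 0 members at an unadjusted limma p under 0.05, and SAM was not run for it.

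None of the 8 genes of origin licensing and the helicase was called in any comparison. Signals of Cdt1, which brings the helicase to origins, were 8.25, 8.14 and 8.35 in control, 8.22, 8.06 and 8.29 in control+L-Arg, 8.43, 8.17 and 9.17 in DSS and 8.58, 8.36 and 8.53 in DSS+L-Arg. It was the 1 licensing gene that was not lowest in DSS 2, where it was 0.08 below the control mean. Its difference between DSS and control was 0.34 ± 0.20 (limma adjusted p = 0.386).

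Cdc6, which loads the helicase with Cdt1, was at 6.46, 6.42 and 6.26 in control, 6.07, 6.10 and 6.32 in control+L-Arg, 6.42, 5.83 and 6.97 in DSS and 6.47, 6.77 and 6.93 in DSS+L-Arg. The lowest DSS+L-Arg mouse (6.47) was only just above the highest of the 6 mice without DSS (6.46), and the DSS mice lay on both sides. Its difference of 0.56 ± 0.23 from control+L-Arg had an unadjusted limma p of 0.0320 and an adjusted p of 0.277.

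Among the helicase subunits, Mcm3 was at 6.56, 6.95 and 6.90 in control, 6.79, 6.35 and 6.97 in control+L-Arg, 7.25, 5.97 and 8.10 in DSS and 7.58, 7.16 and 6.99 in DSS+L-Arg. Mcm5 was at 8.59, 8.78 and 8.84 in control, 8.72, 8.53 and 8.91 in control+L-Arg, 8.85, 7.45 and 9.83 in DSS and 9.31, 8.84 and 8.81 in DSS+L-Arg. Mcm7 was at 8.37, 8.44 and 8.70 in control, 8.36, 8.34 and 8.62 in control+L-Arg, 8.72, 7.38 and 9.39 in DSS and 8.82, 8.82 and 8.96 in DSS+L-Arg. In these 3 subunits DSS 2 and DSS 3 bracketed all other arrays, and DSS 1 was above the control mean in all of them. The same bracket was seen for Mcm2, Mcm4 and Mcm6, in which DSS 3 exceeded DSS 2 by 1.54, 1.84 and 1.94.

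The licensing genes differed from the other roles in the DSS+L-Arg mice, as noticed after the values were seen. All 3 DSS+L-Arg mice had a positive median over the 8 genes (0.46, 0.32 and 0.27 relative to control), whereas DSS+L-Arg 2 was negative in each of the other roles. Cdc6, Cdt1, Mcm2, Mcm3, Mcm4, Mcm6 and Mcm7 did not overlap between DSS+L-Arg and control, with all DSS+L-Arg mice higher, and of the other members only Rrm2 did not. These 8 of 36 genes compare with 23.2% of all genes, so the share over all members is near the background. Differences of the 8 licensing genes from control lay between 0.24 and 0.44 with a median of 0.35, and none was called. Against control+L-Arg, 6 of 36 genes did not overlap (Cdc6, Cdt1, Mcm3, Mcm4, Mcm7 and Rrm2), compared with 21.1% of all genes. A difference between roles was not tested.

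**Figure D4:**
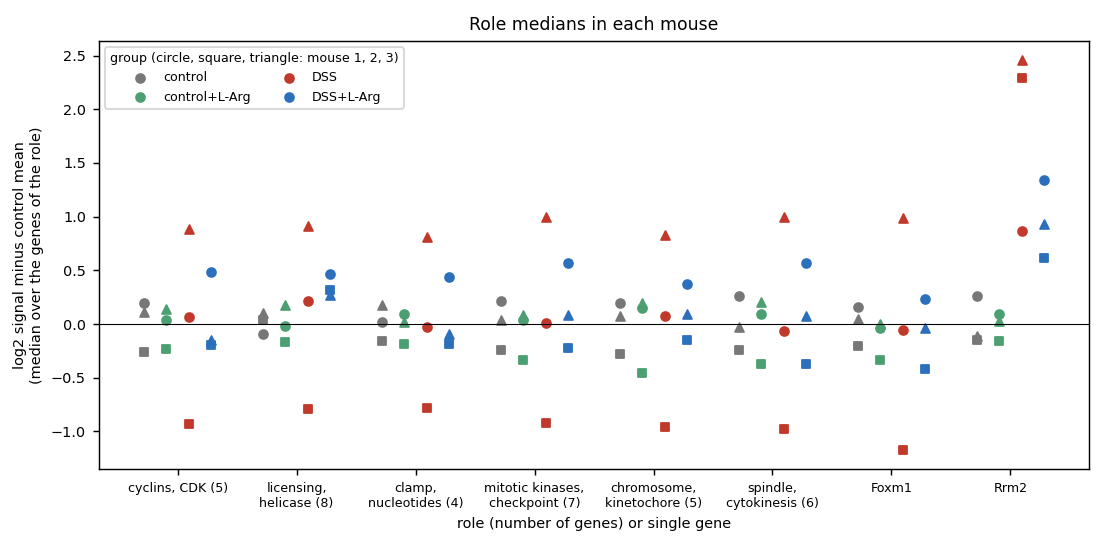
Median over the genes of each role, and the single genes Foxm1 and Rrm2, as log2 signal minus the control mean (y axis), with 1 point per mouse, colored by group and shaped by mouse number. DSS 2 and DSS 3 are the lowest and highest points in every role, while Rrm2 is high in both and all 3 DSS+L-Arg mice lie above 0 for licensing.

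The replication clamp and nucleotide enzymes held 4 genes, of which Rrm2 is described above. Pcna, the sliding clamp, was at 10.76, 11.07 and 11.21 in control, 10.77, 11.02 and 11.01 in control+L-Arg, 10.88, 10.32 and 11.29 in DSS and 11.23, 10.92 and 10.83 in DSS+L-Arg. DSS 3 was only 0.06 above the next highest mouse, DSS+L-Arg 1, and the difference between DSS and control was -0.18, with a 95% interval from -0.66 to 0.29. Rrm1 and Tyms, which encodes thymidylate synthase, followed the common order, with DSS 3 above DSS 2 by 2.28 and 1.36. Rrm2 therefore stood apart from its partner subunit and from the other nucleotide enzyme of the list in DSS 2.

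The 4 cyclins and Cdk1 were not called. Ccna2, which encodes cyclin A2 of S phase and mitotic entry, was at 10.71, 10.21 and 10.63 in control, 10.55, 10.18 and 10.69 in control+L-Arg, 10.48, 9.38 and 11.40 in DSS and 11.00, 9.97 and 10.36 in DSS+L-Arg. Mouse 2 was the lowest in each group, and DSS 2 and DSS 3 lay outside all others. Ccne1 and Ccne2 (cyclins E of the G1 to S transition), Ccnb2 (cyclin B2) and Cdk1, the mitotic kinase, showed the same extremes, with DSS 3 above DSS 2 by 2.38, 1.36, 1.37 and 1.94. Differences of the 5 genes between DSS and control were between -0.09 and 0.14.

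The mitotic kinases and checkpoint genes held the member with the deepest single value. Plk1, a kinase of mitotic entry and spindle assembly, was at 9.76, 9.22 and 9.65 in control, 9.59, 9.13 and 9.65 in control+L-Arg, 9.80, 8.67 and 10.79 in DSS and 10.28, 9.55 and 9.84 in DSS+L-Arg. Bub1, a kinase of the spindle checkpoint, was at 8.11, 7.61 and 7.96 in control, 8.10, 7.54 and 8.13 in control+L-Arg, 7.90, 6.23 and 8.69 in DSS and 8.49, 7.45 and 7.98 in DSS+L-Arg. In Bub1 DSS 2 lay 1.66 below the control mean, the deepest value of any member, while DSS 3 lay 0.79 above it. Aurka and Aurkb (Aurora kinases of the spindle poles and of the centromere), Bub1b and Ttk (checkpoint proteins) and Cdc20, the activator of the anaphase-promoting complex, spanned 2.11, 2.34, 2.12, 1.92 and 1.92 between DSS 2 and DSS 3. Differences of these 7 genes between DSS and control lay between -0.28 and 0.21.

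The 5 genes of chromosome and kinetochore proteins followed the same order of mice. Mki67, the Ki-67 antigen that coats mitotic chromosomes and is widely used as a marker of proliferation, was at 9.90, 9.46 and 9.84 in control, 9.83, 9.23 and 9.90 in control+L-Arg, 9.82, 8.66 and 10.41 in DSS and 10.10, 9.57 and 9.73 in DSS+L-Arg. Its difference between DSS and control was -0.10, with a 95% interval from -0.89 to 0.68. Top2a, the topoisomerase that untangles sister chromatids, was at 8.81, 8.45 and 8.84 in control, 8.84, 8.24 and 8.92 in control+L-Arg, 8.69, 7.09 and 9.55 in DSS and 9.08, 8.55 and 8.79 in DSS+L-Arg. A dim probe set of Top2a, between 3.07 and 3.61, was not used. Birc5 (survivin, of the chromosomal passenger complex) spanned 1.19 between DSS 2 and DSS 3, and the kinetochore proteins Cenpe and Cenpf 2.08 and 1.57.

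The 6 genes of the spindle and cytokinesis had the same extreme mice. Kif11, the motor that separates the spindle poles, was at 8.99, 8.50 and 8.70 in control, 8.92, 8.35 and 9.02 in control+L-Arg, 8.63, 7.15 and 9.48 in DSS and 8.99, 8.42 and 8.62 in DSS+L-Arg. Nusap1, which bundles spindle microtubules, was at 9.03, 8.33 and 8.78 in control, 9.001, 8.25 and 8.99 in control+L-Arg, 8.20, 7.61 and 9.38 in DSS and 8.84, 7.86 and 8.48 in DSS+L-Arg. Of all members, Nusap1 was the one in which DSS 1 lay furthest below the control mean (-0.51), and its group mean was the lowest relative to control. Kif20a and Kif23 (motors of cytokinesis), Tpx2 (spindle assembly) and Prc1 (the central spindle) spanned 2.13, 1.96, 1.87 and 2.25 between DSS 2 and DSS 3. The promoter windows of Kif11 and Nusap1 printed above differ in the letters searched, and both genes had the same extreme mice.

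Foxm1, a transcription factor of late cell cycle genes, was at 8.20, 7.83 and 8.09 in control, 8.00, 7.71 and 8.04 in control+L-Arg, 7.99, 6.87 and 9.03 in DSS and 8.27, 7.62 and 8.00 in DSS+L-Arg. Its order across the DSS mice was that of the mitotic genes, and its difference between DSS and control was -0.08, with a 95% interval from -0.96 to 0.80.

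Other genes of the cell cycle were read from 12 lists with 253 measured genes that are not members. In 129 of the 253 (51%), DSS 3 was the highest and DSS 2 the lowest of the 12 arrays, compared with 3.65% of all genes. The median difference of DSS 3 from DSS 2 over the 253 was 0.93, compared with 1.95 for the members. The pattern held for 39 of 49 genes of the spindle, kinetochore and centromere, 22 of 42 replication fork and origin factors, 13 of 18 genes of the replication checkpoint and homologous recombination, 7 of 8 cytokinesis genes, 12 of 22 genes of the G1 cyclins, CDKs and E2F factors, 7 of 16 of mitotic transcription and entry, 12 of 19 of condensin, cohesin and sister separation, and 7 of 12 of nucleotide supply. It held for 5 of 16 genes of the anaphase-promoting complex, 2 of 7 CDK inhibitors, 2 of 18 p53 targets and 1 of 26 histones.

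In DSS versus control, 8 genes were called over the 12 lists, 1 higher and 7 lower, in the nucleotide, anaphase-promoting complex and histone lists. The 1 higher of 253 is a smaller share than the 1.8% of all genes called higher. Of the 7 lower, 6 were among the 26 histones and 1 was in the other lists, compared with 2.23% of all genes called lower. In DSS+L-Arg versus DSS 0 of the 253 genes were called. Ctps, which makes CTP, was at 6.62, 6.65 and 6.82 in control, 6.53, 6.53 and 6.58 in control+L-Arg, 7.23, 7.76 and 8.33 in DSS and 7.73, 6.97 and 7.13 in DSS+L-Arg. It rose by 1.08 ± 0.25 in DSS (limma adjusted p = 0.0354), and its lowest DSS mouse was above every mouse without DSS. Anapc13, a subunit of the anaphase-promoting complex, fell by 0.34 ± 0.08 (limma adjusted p = 0.0466), and its 3 DSS values (9.61, 9.59 and 9.67) were below those of all other mice. Ctps and Anapc13 were named for their calls in this comparison, so their separation adds no support. Its share over all genes is not given. The CDK inhibitors and p53 targets had 0 called genes each, with 1 of 7 and 3 of 18 at an unadjusted limma p under 0.05. No share over all genes is given for that threshold.

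Replication-dependent histones, which package newly made DNA, were more often lower than higher. Of 26 measured, 6 were called lower and 0 higher in DSS than in control, compared with 2.23% of all genes called lower. In the mean 25 of 26 were lower, with a median of -0.31, where 46.9% of all genes were higher. H3c4 was at 8.23, 8.49 and 8.50 in control, 7.48, 8.08 and 7.56 in control+L-Arg, 6.12, 6.23 and 6.79 in DSS and 6.89, 6.73 and 6.98 in DSS+L-Arg. It fell by 2.03 ± 0.19 in DSS and by 1.54 ± 0.19 in DSS+L-Arg relative to control (limma adjusted p = 0.000546 and 0.0334). H3c4 had a difference of -0.70 between control+L-Arg and control, which was not called, and against control+L-Arg its difference in DSS+L-Arg was -0.84 and not called (limma adjusted p = 0.0959). All 6 DSS-exposed mice were below all 6 others in H3c4. This gene was named for its call, so its separation adds no support, and the share over all genes is not given.

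The linker histone H1f3 was at 6.57, 6.35 and 6.84 in control, 6.09, 5.92 and 6.08 in control+L-Arg, 5.28, 5.07 and 5.72 in DSS and 5.75, 5.76 and 5.79 in DSS+L-Arg. It fell by 1.23 in DSS, and H3c15, H2bc21, H1f2 and H2bc4 fell by 1.28, 0.73, 0.61 and 0.56. Between control+L-Arg and control, H3c15, H1f3 and H1f2 also had lower means, with differences of -0.74, -0.55 and -0.30. Those of H2bc21 and H2bc4 were 0.16 and 0.02, and none was called. In each of the 6 called histones all 3 DSS mice were below all 3 control mice. They were picked by their call in this same comparison, so this adds no support, and groups did not overlap for 25% of all genes. The other 20 had no call, and in most of the 26 the lowest array was DSS 2 (21 of 26). Their medians relative to control were -0.15, -0.76 and 0.06 in DSS 1, 2 and 3. Histone genes are near-identical copies, so a probe set may read several of them, and replication-dependent histone transcripts end without a poly(A) tail. The calls were 2 with the DSS and control arrays alone (H1f2 and H3c4), 3 without control 1 and 2 without control 3.

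**Figure D5:**
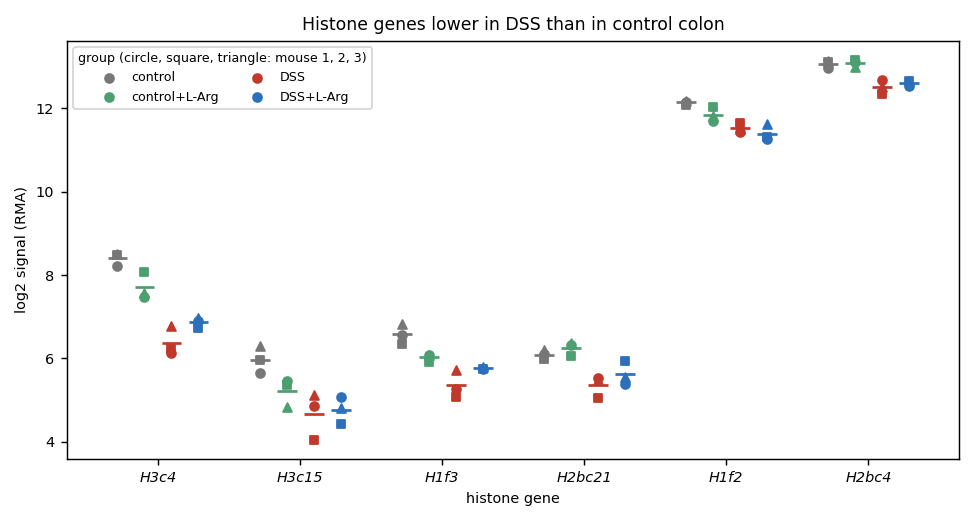
Log2 RMA signal (y axis) of the 6 histone genes called lower in DSS than in control (x axis), with 1 point per mouse, shaped by mouse number and colored by group, and group means as lines. The DSS mice lie below the control mice for each gene, and the log2 difference of the means runs from -2.03 for H3c4 to -0.56 for H2bc4.

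Most neutrophil and macrophage markers differed between DSS and control, while other cell types had few or no called genes. In DSS versus control, 10 of 12 neutrophil markers were called higher (Ngp by 4.82, Lcn2 by 4.34 and S100a8 by 3.91). So were 7 of 11 monocyte and macrophage markers (Fcer1g by 2.46, Mpeg1 by 2.13 and Tyrobp by 2.10), compared with 1.8% of all genes. In the mean all 12 and all 11 were higher. In DSS+L-Arg versus DSS, 4 of 12 and 4 of 11 of these were called lower, compared with 0.522% of all genes. Among them were Ngp, Lcn2 and Mmp8, and Fcer1g, Itgam and Tyrobp. In the mean all 12 and all 11 were lower, with medians of -2.72 and -1.08. The fibroblast markers Dcn and Pdgfra rose by 1.54 and 1.34 in DSS, and Dcn fell by 1.37 in DSS+L-Arg versus DSS. The surface colonocyte enzyme Car4 fell by 0.58 and the goblet cell product Clca1 fell by 1.42 in DSS. No gene of the epithelial, crypt base, B cell, T cell, immature myeloid, endothelial, smooth muscle and posterior Hox lists was called in these comparisons. Medians of the 9 smooth muscle markers were -1.07, -0.96 and -1.63 in the DSS mice, compared with -0.30, -0.44 and 0.76 in control. In the DSS+L-Arg mice the neutrophil medians were 0.56, 0.14 and 0.30. The part of these cells in the values of Rrm2, Ctps and the histones was not tested.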

How the data were processed

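The authors deposited log2 signals per probe set, which their processing notes credit to Affymetrix Expression Console 1.1 and RMA (background correction, quantile normalization and summary of probes), with build mm9. Quantile normalization hides a change shared by most genes. Of 35556 probe sets, the 21789 with a single gene in the platform table were used, and the brightest was kept for each of 19938 genes. Arrays have no depth, and the number of mice limits precision.

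All 12 arrays entered a limma 3.58.1 fit (R 4.3.3) of group means, with 8 residual and 3.37 prior degrees of freedom. P-values were adjusted by Benjamini-Hochberg over all genes, and genes under 0.05 are called. SAM, the test of the study, has 20 label orders here and gave no adjusted p under 0.1, so it was an alternative. The scripts were tested on simulated data.

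Members and lists were chosen with earlier results of these data known. Values of every array are given for members called, the 5 with the largest difference in each of DSS versus control and DSS+L-Arg versus DSS, and the brightest of each role, and up to 3 called genes a direction are named from each other list. Genes given beyond this were named after their values were seen. Promoters are those of the 2 licensing and 2 mitotic genes with the largest difference, and Rrm2.

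Alternatives were the compared groups alone, a replicate block, median centring, further quantile normalization, leaving out genes not above the 30th percentile in at least 3 arrays, the mean of probe sets, a trended robust prior, array weights, SAM, and leaving out each array. Whether mouse numbers pair mice is not in the labels. Deviations of same-numbered mice were correlated for all 3 numbers in control against control+L-Arg alone (r = 0.205, 0.477 and 0.261 over genes), so a blocked fit of these groups was added after seeing the data, as was the histone count under each alternative. Tables and plots were made with Python 3.11.15, pandas 2.3.3 and matplotlib 3.10.9.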

Additional observations from a re-analysis of the deposited data

How the results depend on the processing

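The call of Rrm2 in DSS versus control held under 18 of 21 alternatives. The members called fell from 1 to 0 with the 2 compared groups alone (Rrm2 limma adjusted p = 0.101) and without control 3 (0.0656). They also fell to 0 with SAM (Rrm2 adjusted p = 0.146). The main fit shares 1 spread of each gene over the 4 groups. The SD of Rrm2 was 0.88 in DSS and 0.13 to 0.36 in the other groups. The SE of its difference was 0.34 in the main fit and 0.41 with the 2 compared groups alone. The part of the spread, the number of arrays and the label orders in these losses was not tested. Leaving out each array gave 0 to 1 members called in DSS versus control, where Rrm2 was called in every fit but that without control 3. It also gave 0 to 1 in DSS+L-Arg versus DSS and in DSS+L-Arg versus control+L-Arg, where the 1 is Rrm2 without DSS 1. In the other comparisons it gave 0. The difference of Rrm2 between DSS and control then ranged from 1.58 to 2.38. Array weights, which were lowest for DSS 3 (0.402) and DSS 2 (0.517), gave a difference of 1.46 for Rrm2.

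The member median ranged from -0.42 to 0.50 in DSS versus control, from -0.37 to 0.55 in DSS+L-Arg versus DSS, from -0.13 to 0.09 in control+L-Arg versus control, and for DSS+L-Arg from -0.02 to 0.30 against control and from -0.01 to 0.31 against control+L-Arg when arrays were left out in turn, so its sign rests on single mice. The SD of the arrays' member medians within groups was 0.51. With the replicate block 1 member, Rrm2 (adjusted p = 0.0258), was called in DSS versus control and 0 in every other comparison, also in the fit of control and control+L-Arg alone, so the block changed no call of a member. Histones called lower numbered 2 with the compared groups alone, 0 with SAM, 3 without control 1 and 2 without control 3, with 2 to 7 over all fits without 1 array, and 7 with the replicate block. With 3 mice a group and 1 spread shared by the 4 groups, 95% intervals of a member reached a median of 0.85 to either side. This width was the same in every comparison of 2 groups, because the wide DSS group enters the shared spread. For Rrm2 in control+L-Arg versus control the SE was 0.34, and it was 0.13 with those groups alone. In DSS+L-Arg versus control+L-Arg these values were 0.34 and 0.18.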
